A study of Mus musculus with 40 samples.

Results

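Of the 28467 genes in the bulk table, 10 are described here as a set of FoxO targets and autophagy genes. Ypel3 is on none of the FoxO or autophagy lists used below, only on that of the YPEL family. Gabarapl1, Calcoco1 and Ypel3 were selected on measured values, because they were lower in bulk RNA 24 h after nephrectomy, and Irs2 because it was lower in nuclei at 24 h. Ulk1, Map1lc3a, Map1lc3b, Sqstm1, Bnip3 and Foxo3 were added as known parts of the FoxO and autophagy pathways. All 10 passed the filter on low counts at every time point. The values of 24 h, in bulk and in nuclei, therefore chose the list and are given as a description without a test. The stated rule did not use 48 h and 72 h. Since the choice was made with earlier results of these data known, tests of those times cannot be taken as wholly independent of it.

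All animals were male C57BL/6 mice aged 8 to 12 weeks, and the right kidney was measured in each. In the UNx groups unilateral nephrectomy had taken out the left kidney, and in the sham groups the same surgery was done without removing it, with isoflurane and buprenorphine in both. Bulk RNA-seq of polyadenylated RNA from a kidney cross-section covered 6 sham and 6 UNx mice at each of 24, 48 and 72 h, with bulk libraries of 24 h labelled batch 1 and all others batch 2, so that 24 h and batch 1 cannot be told apart. RNA-seq of sorted nuclei covered 4 other mice at 24 h, 1 sham and 1 UNx in each of batches 3 and 4.

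FoxO proteins are transcription factors that insulin and growth factor signals, through AKT, keep out of the nucleus. When those signals are weak, FoxO factors enter the nucleus and raise genes of fasting metabolism, of growth arrest and of autophagy, the process in which a membrane sac encloses cell content and carries it to the lysosome. Proximal tubule cells, which reabsorb most of the filtrate, rely on autophagy to maintain their many mitochondria. Irs2 is the adaptor that links the insulin receptor to this pathway and is itself a FoxO target.

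Promoter sequences are shown for 3 genes whose windows held letters searched for, since they are the genes on which the account below turns most. RefSeq windows of 250 bases before to 50 after the start (GRCm38.p6) were found for 9 of the 10 genes, and Map1lc3a had no entry. Searches on both strands covered GTAAACA (the FoxO core), ATAAACA (a variant of it that shares all letters but the first), CAAAACA (an insulin response form) and CACGTG (the E-box core of the lysosomal CLEAR element). In the lines below, written 5′ to 3′ on the gene's strand, capitals mark these matches. The Gabarapl1 stretch is chr6:129532942-129533151, plus strand, the Irs2 stretch is chr8:11008930-11009179, minus strand, and the Ypel3 stretch is chr7:126776976-126777005, plus strand.
Gabarapl1: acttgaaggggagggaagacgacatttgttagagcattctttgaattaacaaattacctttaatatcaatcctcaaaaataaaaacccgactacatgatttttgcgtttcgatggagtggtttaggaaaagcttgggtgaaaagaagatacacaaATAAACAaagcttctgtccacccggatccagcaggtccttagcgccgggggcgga
Irs2: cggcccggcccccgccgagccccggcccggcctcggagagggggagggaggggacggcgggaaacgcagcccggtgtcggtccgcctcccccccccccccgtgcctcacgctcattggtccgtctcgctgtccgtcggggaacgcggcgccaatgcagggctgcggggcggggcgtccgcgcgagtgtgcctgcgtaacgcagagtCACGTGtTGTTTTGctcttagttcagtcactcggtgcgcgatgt
Ypel3: gctggtctcggtGTAAACAagtcgaggcgg
The Gabarapl1 match ATAAACA lies at -95 to -89 from the start, and 4.6% of all 32851 windows held these letters. Upstream of Irs2, CACGTG lies at -44 to -39 and CAAAACA, on the opposite strand, at -37 to -31, with 7.15% and 6.28% of windows holding them. The Ypel3 match GTAAACA lies after the start, at 26 to 32, and 3.65% of windows held it. Bnip3 was the only other gene with a match, CACGTG at -108 to -103. These are letters in a window and say nothing of whether a factor binds there.

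Bulk depth was 14.9 to 24.1 M estimated counts per library. Expression is in CPM, counts for each M of TMM-adjusted library size, and is not corrected for gene length, so levels are compared between samples and not between genes. Some libraries stood apart. Mitochondrially encoded genes took 25.8 to 26.4% of counts in UNx replicates 1 to 5 of 48 h but 15.2% in replicate 6, 13.6 to 15.5% in shams of 48 and 72 h, and 21.5 to 26.7% at 24 h. A profile score over pseudogenes, scaled so that shams of 48 and 72 h average 0 and those of 24 h average 1, was 0.640 to 0.717 in those 5 libraries and 0.0063 in replicate 6. At 24 h the score was 0.958 to 1.04 in shams and 0.674 to 0.884 in UNx kidneys, so these groups did not overlap either. The shams of 24 h define the score and the UNx kidneys do not, so part of that gap can be built in. The mitochondrial share of the 24 h groups overlapped, at 23.5 to 26.7% in shams and 21.5 to 24.9% in UNx kidneys. Results of 48 h are therefore given with and without these 5 libraries for the 10 genes described. Fold changes of other genes at 48 h include all libraries.

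At 24 h the kidneys left after nephrectomy held less mRNA of Gabarapl1, Calcoco1, Ypel3, Ulk1 and Map1lc3b, more of Map1lc3a, and differed by 0.12 or less on the log2 scale in Sqstm1, Bnip3 and Foxo3. Gabarapl1 (ENSMUSG00000030161, chr6:129533160-129542346, plus strand in GRCm38) encodes an ATG8 protein that coats the growing autophagosome. It lay between 706 and 832 CPM in shams (median 787) and between 407 and 529 in UNx kidneys (median 467), a log2 fold change of -0.75 (SE 0.064). Calcoco1 (ENSMUSG00000023055, chr15:102706777-102722178, minus strand in GRCm38), a receptor that delivers endoplasmic reticulum and Golgi to autophagosomes, lay between 69.9 and 85.0 CPM in shams (median 76.2) and 44.9 and 54.7 in UNx kidneys (median 48.1), with a log2 fold change of -0.66 (SE 0.058). For both genes every UNx library was below every sham library.

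Ypel3 (ENSMUSG00000042675, chr7:126776955-126780514, plus strand in GRCm38), a small zinc-binding protein linked to growth arrest, had the most negative fold change of the 10. Its range was 38.8 to 48.8 CPM in shams (median 44.3) and 21.7 to 26.5 in UNx kidneys (median 24.3), a log2 fold change of -0.85 (SE 0.069). Ulk1 (chr5:110784488-110810097, minus strand), the kinase that starts autophagy, went from a median of 76.8 CPM (72.6 to 83.6) to 58.1 (51.7 to 66.4), or -0.41 (SE 0.063). Map1lc3b (chr8:121590361-121598760, plus strand), which encodes the LC3B form of ATG8, went from 125 CPM (115 to 132) to 102 (98.1 to 103), or -0.28 (SE 0.046). The UNx kidneys again lay below all shams for these 3 genes.

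Map1lc3a (chr2:155276297-155278073, plus strand), the LC3A form, moved the other way, from a median of 23.6 CPM (19.7 to 29.2) in shams to 33.1 (27.6 to 38.8), a log2 fold change of 0.46 (SE 0.097), with 5 of 6 UNx libraries above the highest sham. Irs2 (ENSMUSG00000038894, chr8:10984681-11008458, minus strand) lay between 14.7 and 37.6 CPM in shams (median 19.4) and between 24.4 and 37.0 in UNx kidneys (median 29.9), a log2 fold change of 0.50 (SE 0.19), and the groups overlapped. Sqstm1 (chr11:50199366-50210827, minus strand), the receptor p62 that ties ubiquitin-marked cargo to LC3, differed by 0.04 (SE 0.065). Bnip3 (chr7:138890836-138909519, minus strand), a mitochondrial receptor of mitophagy that hypoxia and FoxO3 induce, differed by -0.04 (SE 0.066). The factor gene Foxo3 itself (chr10:42181841-42276755, minus strand) differed by -0.12 (SE 0.084).

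In the edgeR quasi-likelihood test, 5 of the 10 genes were called lower and 1 higher at 24 h, where 27.3% of all genes tested were called (13.1% lower, 14.2% higher), and 5 had all UNx libraries below all shams, as had 4.47% of genes tested. Nothing is read from these counts, since this contrast chose the list. With the profile score as a covariate, 1 of the 10 was called in place of 6, and 80 genes in place of 3852. The score does not overlap between the 24 h groups, so that surgery and score can hardly be told apart in that fit and its errors are wide. The fold change was then -0.85 (SE 0.18) for Gabarapl1, -0.87 (SE 0.20) for Ypel3 and -0.54 (SE 0.16) for Calcoco1, but -0.10 (SE 0.15) for Ulk1 and -0.0797 (SE 0.22) for Map1lc3a. Over all 19 settings Gabarapl1 was at -0.72 or lower, Ypel3 at -0.82 or lower, Calcoco1 at -0.54 or lower and Ulk1 at -0.10 or lower. As the list was chosen on values of 24 h, nothing is read from this either. Summed proximal tubule markers (10 of 10 listed genes measured) ranged from 29630 to 39570 CPM in shams and 27560 to 35390 in UNx kidneys. Other marker lists had medians away from 0 at 24 h, with a median log2 fold change of 0.45 over principal cell markers (4 of 4 positive, 1 called), 0.38 over red blood cell markers (5 of 5 positive, 2 called), 0.22 over fibroblast and mural markers (5 of 5 positive, 1 called) and -0.20 over podocyte markers (4 of 4 negative, 1 called). Red blood cell markers were at -0.58 at 48 h (2 of 5 called lower, beside 32.9% of all genes called) and -0.69 at 72 h (none called). Also at 48 h, adipocyte markers were at -1.87 (3 of 3 negative, none called) and thin limb markers at -0.74 (3 of 4 negative, 1 called). Principal cell markers were at -0.57 (4 of 4 negative, none called). Proximal tubule markers were at 0.21 (6 of 10 positive, 4 called higher and 2 lower) and neutrophil markers at 0.60 (2 of 2 positive, none called). The part of these lists in the results was not tested. In bulk tissue, fewer cells of a type and less RNA per cell cannot be told apart.

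**Figure D1:**
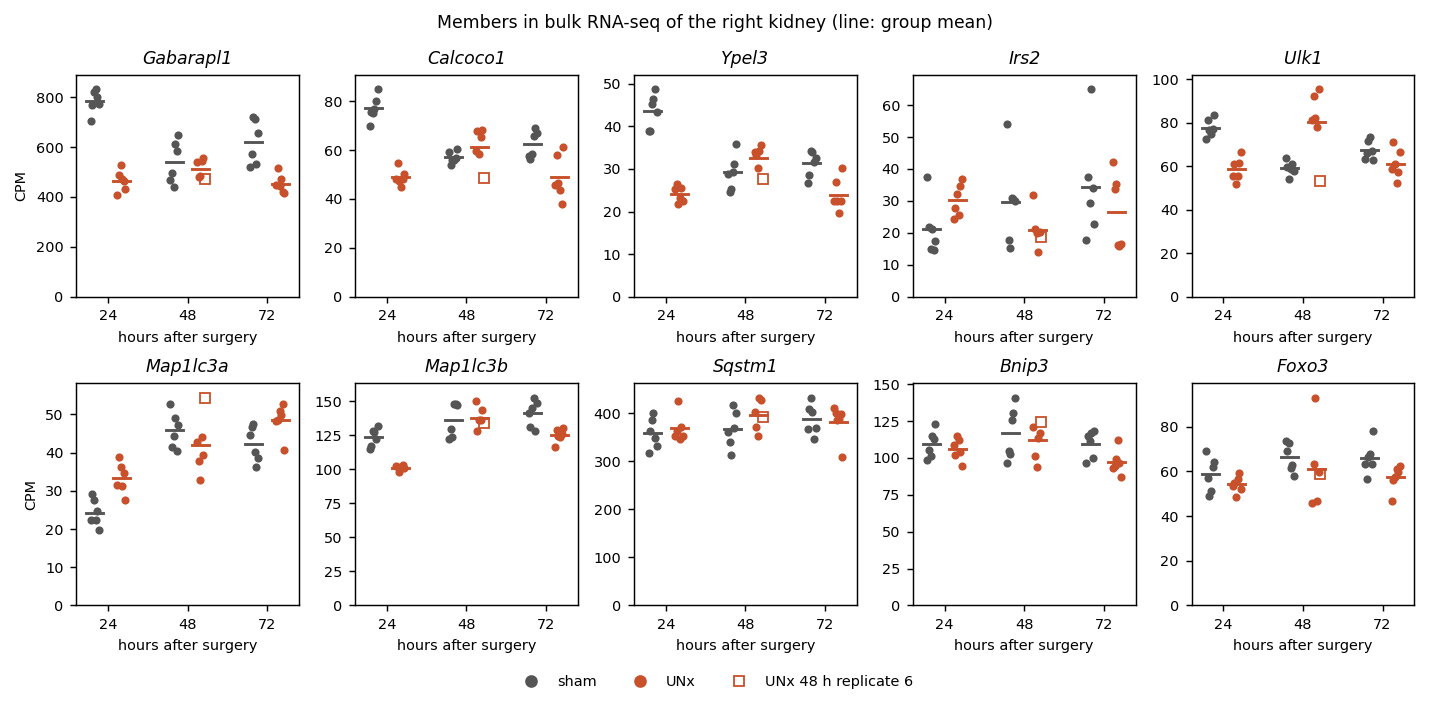
CPM of the 10 genes in each of the 36 bulk libraries (points) by hours after surgery, with group means as lines, sham in grey and UNx in orange, and UNx replicate 6 of 48 h as an open square. At 24 h all UNx points lie below all sham points for Gabarapl1, Calcoco1, Ypel3, Ulk1 and Map1lc3b, and at 72 h for Gabarapl1.

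In the nuclei of UNx mice Irs2 was much lower in the classes annotated as proximal tubule, most of all in those of segments S2 and S3. Over all nuclei it stood at 73.2 and 66.2 CPM of summed UMIs in the shams of batches 3 and 4 and at 21.3 and 20.3 in the UNx mice. In sham mice the level was higher from each segment to the next, and in UNx mice it was not. In class PTS1 of the authors' annotation (segment S1) it was 47.8 and 46.4 CPM in shams and 20.8 and 15.8 in UNx mice. In PTS2 it was 102 and 108 CPM against 16.5 and 13.0, and in PTS3 203.5 and 165 against 17.7 and 20.1. The ratio of UNx to sham within batches 3 and 4 was thus 0.435 and 0.341 in PTS1, 0.163 and 0.121 in PTS2, and 0.0870 and 0.122 in PTS3. The PTS3 level divided by that of PTS1 was 4.26 and 3.55 in shams and 0.853 and 1.27 in UNx mice.

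The 3 proximal classes supplied 81.4% and 64.3% of all Irs2 UMIs in shams but 49.1% and 37.2% in UNx mice, while their share of nuclei was between 38.3% and 40.6%. Within that share the segments differed between the mice of batch 4, with 538 PTS1 and 211 PTS3 nuclei of 2641 in the sham and 430 and 456 of 3366 in the UNx mouse, against 959 and 502 of 5342 and 770 and 502 of 5151 in batch 3. Outside them Irs2 was at 30.7 and 43.6 CPM in shams and 25.4 and 23.4 in UNx mice. Both UNx mice lay below both shams in 10 of 23 classes and above both in 1. Among the 13 classes with at least 10 UMIs of Irs2 in every mouse they lay below in 7, and 11.5% of gene and class pairs tested showed that order. Class ICA did not share it, with 46.4 and 70.2 CPM in shams and 71.8 and 62.5 in UNx mice. Each order rests on 2 mice per group, the same in every class, so that the classes are not separate repeats. The lower level of Irs2 in nuclei at 24 h was what placed it on the list.

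RNA from other cells was present in the nuclei, and more so in batch 4. The phosphate transporter gene Slc34a1, a proximal tubule marker, reached 4.06% and 4.34% of its PTS1 level in endothelial class EC1 in the sham and UNx mice of batch 3, but 34.0% and 33.2% in those of batch 4. The 10 proximal markers together gave 6629 CPM in EC1 and 20640 in PTS1 in the batch 3 sham, and 15750 and 22830 in the batch 4 sham. In PTS3 they gave 8633 and 14890 CPM in these shams. In the UNx mice of batches 3 and 4 they gave 8732 and 15430 in PTS3 and 9674 and 16770 in EC1. These markers thus did not set PTS3 apart from EC1, and its name rests on the authors' annotation. Of the marker lists, that of macrophages stood furthest above its median class in PTS3 (ratio 6.19). Irs2 in EC1 followed the batches, at 5.0 and 2.4 CPM in batch 3 (sham, UNx) and 44.8 and 17.4 in batch 4. How much of the Irs2 level outside the proximal tubule comes from such RNA was not tested. Median depth was 7582 and 9909 UMIs per nucleus in shams and 8370 and 8063 in UNx mice, from 5342, 2641, 5151 and 3366 nuclei, and 1 to 7 barcodes were shared between any pair of libraries.

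Bulk and nuclei gave Irs2 in opposite directions at 24 h. The bulk median was 19.4 CPM in shams and 29.9 in UNx kidneys, whereas nuclei of other mice gave 73.2 and 66.2 CPM in shams and 21.3 and 20.3 after nephrectomy. One sham bulk library, replicate 1, reached 37.6 CPM, above every UNx library. The bulk libraries read polyadenylated RNA of whole tissue in batch 1 and the nuclei the 3′ ends of nuclear RNA in batches 3 and 4, and which of these differences matters was not tested.

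**Figure D2:**
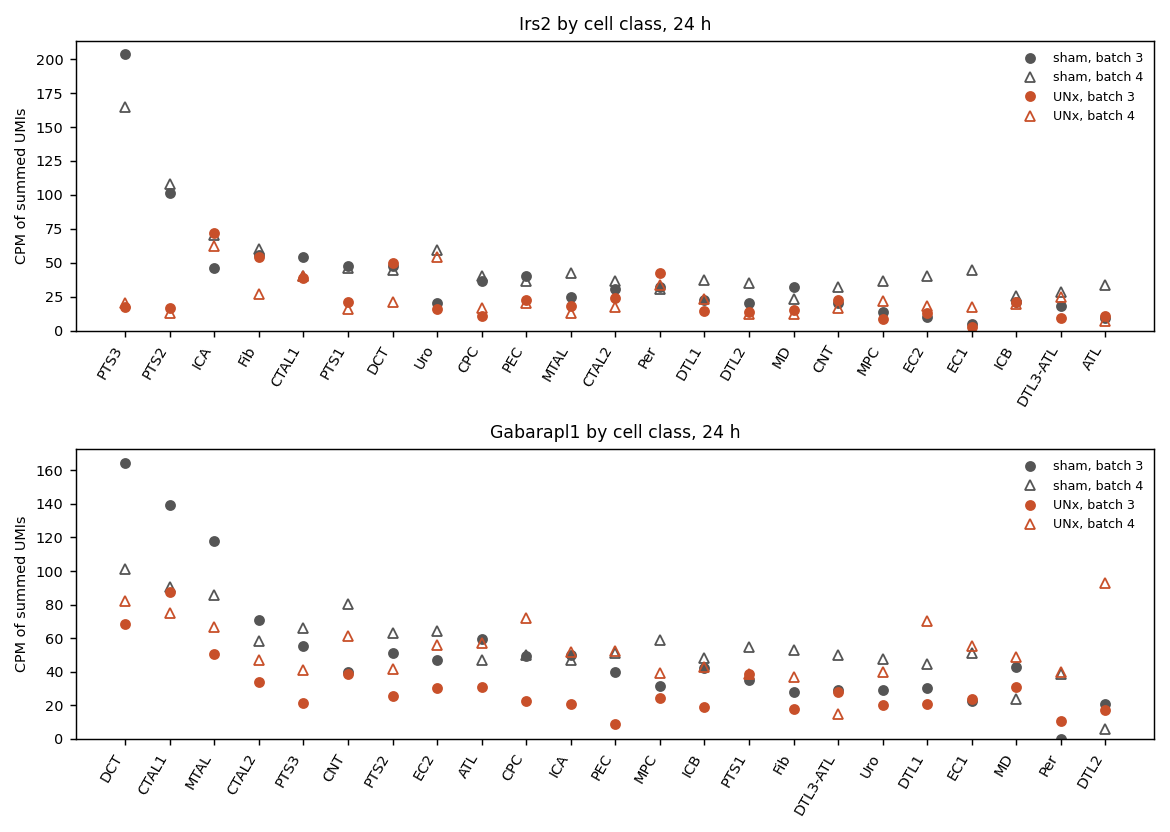
CPM of summed UMIs of Irs2 (upper panel) and Gabarapl1 (lower panel) in each cell class of the 4 mice at 24 h, ordered by the sham mean, with sham in grey, UNx in orange, batch 3 as filled circles and batch 4 as open triangles. Irs2 in PTS3 lies at 165 to 203.5 in shams and 17.7 to 20.1 in UNx mice, and Gabarapl1 is highest in class DCT in both sham mice but not in the UNx mice.

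Ypel3 was lower in both UNx mice in most cell classes. It stood at 46.9 and 47.4 CPM over all nuclei in shams and 32.2 and 32.2 in UNx mice. Both UNx mice were below both shams in 16 of 23 classes, and in 12 of the 17 classes with at least 10 UMIs in every mouse. Of all gene and class pairs tested 11.5% showed that order. The other 5 of those 17 classes, ATL, CTAL1, ICA, MPC and Uro, overlapped. Among the 12 were PTS1, at 37.0 and 42.3 against 23.1 and 27.2 CPM, and the medullary thick limb class MTAL, at 55.9 and 51.9 against 32.3 and 30.7. The rule chose Ypel3 on bulk values of 24 h, and these nuclei are of the same time point. All classes come from the same 4 mice and hold RNA from other cells, so they are not separate repeats of the comparison. The 23 classes also include DTL1, DTL2, MD, PEC and Per, where Ypel3 did not pass the filter on low counts. The share of 11.5% covers only pairs that passed it.

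In both sham mice Gabarapl1 was highest in class DCT, whereas in the UNx mice it was highest in CTAL1 in batch 3 (87.4 CPM) and in DTL2 in batch 4 (93.0 CPM, from 15 UMIs). In class DCT (distal convoluted tubule) it stood at 164.5 and 101 CPM in shams and 68.3 and 82.2 in UNx mice, and in MTAL at 118 and 86.0 against 50.7 and 66.8. Both UNx mice lay below both shams in 7 of 23 classes, and in 6 of the 16 with at least 10 UMIs in every mouse. That order was shown by 11.5% of pairs tested, and here too the classes come from the same mice. Over the 23 classes the ratio to the sham of the same batch was below 1 in both batches in 13 and above 1 in both in 2. In PTS3 Gabarapl1 was at 55.4 and 66.3 CPM against 21.4 and 41.0, while in PTS1 the groups overlapped (34.9 and 54.6 against 38.9 and 38.4). Its ratio of UNx to sham had a median over the classes of 0.640 in batch 3 and 0.830 in batch 4.

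Calcoco1 overlapped between the groups over all nuclei, at 24.6 and 20.6 CPM in shams and 22.6 and 16.1 in UNx mice, although its ratio was below 1 in each batch. Bnip3 was lower in both UNx mice in all 3 proximal classes, in PTS3 at 61.2 and 43.8 CPM in shams against 39.2 and 28.3. That order was shown by 2119 of 14933 genes tested in PTS1, 1852 of 14293 in PTS2 and 1635 of 14816 in PTS3. Map1lc3b was at 32.0 and 53.4 CPM against 26.2 and 41.4 over all nuclei, lower in UNx within each batch. Map1lc3a differed more between batches than between sham and UNx mice, at 10.6 and 12.6 CPM in batch 3 (sham, UNx) and 42.2 and 39.5 in batch 4 over all nuclei. Its median over the 23 classes was 11.8 and 16.9 CPM in batch 3 and 42.5 and 40.3 in batch 4. The ratio of UNx to sham had a median over the classes of 1.40 in batch 3 and 0.981 in batch 4, and was above 1 in both batches in 5 classes and below 1 in both in 1.

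Ulk1 was at 26.1 and 27.2 CPM in shams and 24.3 and 27.5 in UNx mice over all nuclei, although in MTAL both UNx mice (22.7 and 23.3) were below both shams (34.4 and 31.9). Over the 23 classes both UNx mice were below both shams in 6 and above in 2, and 15 overlapped, with the ratio below 1 in both batches in 7 and above 1 in both in 6. Among the 15 classes with at least 10 UMIs of Ulk1 in every mouse they were below in 4 and above in 1. Of all gene and class pairs tested 11.5% had both UNx mice below both shams. Sqstm1, at 161 and 112 against 145 and 105 CPM, and Foxo3, at 207 and 169 against 204 and 152, followed the batches more than the surgery. In sham mice the mean over the mice was highest in PTS3 for Sqstm1 (192 CPM) and in MTAL for Foxo3 (266 CPM).

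Over all nuclei 4 of the 10 genes, Gabarapl1, Ypel3, Irs2 and Bnip3, had both UNx mice below both shams, as had 13.2% of genes tested. Without the batch as a block, edgeR called 0 genes over all nuclei or in any class (360 over all nuclei at an unadjusted p under 0.05). With it, where the labelled batches pair the mice, 207 genes were called over all nuclei (1.04% of those tested), Irs2 among them, and 0.726% of gene and class pairs. Those pairs held 5 of the 10 genes' own, namely Irs2 in PTS1, PTS2 and PTS3 and Gabarapl1 in PTS2 and PTS3. Since this contrast helped to choose the list, nothing is read from these calls.

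**Figure D3:**
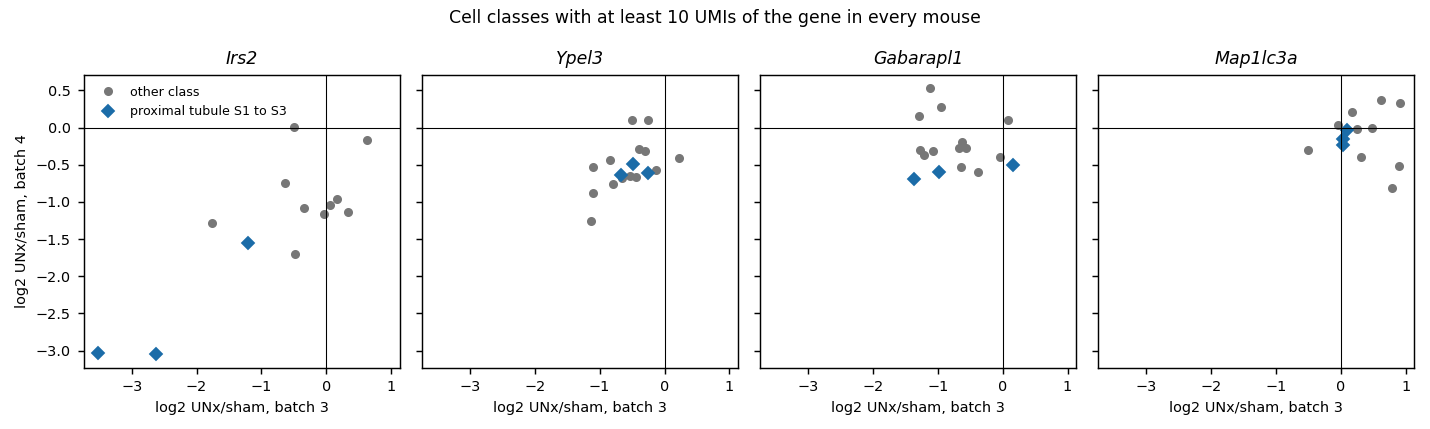
Log2 ratio of UNx to sham within batch 4 (vertical axis) against that within batch 3 (horizontal axis) for Irs2, Ypel3, Gabarapl1 and Map1lc3a, each point being 1 cell class with at least 10 UMIs of the gene in every mouse and blue diamonds the proximal tubule classes. Irs2 in PTS2 and PTS3 lies far below 0 on both axes, and most Ypel3 classes lie below 0 on both.

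At 48 h Ulk1 alone of the 10 genes passed the test, and it was higher after nephrectomy. Across all genes tested 32.9% were called at 48 h (edgeR quasi-likelihood test, adjusted p under 0.05). Ulk1 lay between 54.1 and 64.0 CPM in shams (median 59.1) and between 53.2 and 95.4 in UNx kidneys (median 81.6), or 0.44 higher on the log2 scale (SE 0.11, adjusted p = 0.00894), with 5 of 6 UNx libraries above the highest sham. The 5 high values, 78.0 to 95.4 CPM, were those of replicates 1 to 5, which stand apart in mitochondrial share, and replicate 6 was at 53.2, below every sham. With replicate 6 as the only UNx library, assumed to vary like the others, Ulk1 was at -0.15 (SE 0.093, adjusted p = 0.496), and with the profile score as a covariate at -0.14 (adjusted p = 0.579). Thus the rise of Ulk1 held in the libraries that stand apart and not in the remaining one.

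Gabarapl1 lay between 439 and 648 CPM in shams of 48 h (median 541) and between 473 and 554 in UNx kidneys (median 512), a difference of -0.09 (SE 0.10, adjusted p = 0.533). Calcoco1 was at 57.1 ± 2.36 CPM (SD, n = 6) in shams and 61.3 ± 7.32 in UNx kidneys (log2 0.10, adjusted p = 0.348 in edgeR), and Ypel3 at 29.2 ± 4.15 and 32.5 ± 2.93 (0.15, adjusted p = 0.242). Replicate 6 had the lowest UNx value of all 3 genes, at 473, 48.8 and 27.7 CPM, and for Calcoco1 it lay below the lowest sham (54.1). Irs2 lay between 15.1 and 54.1 CPM in shams (median 30.2) and 14.0 and 32.0 in UNx kidneys (median 20.2), or -0.50 on the log2 scale (SE 0.27, adjusted p = 0.156). For all 10 genes the groups overlapped, while 11% of genes tested had groups without overlap. With all libraries Map1lc3a was at -0.14 (adjusted p = 0.348 in edgeR), Map1lc3b at 0.01 (0.919), Sqstm1 at 0.11 (0.321), Bnip3 at -0.07 (0.649) and Foxo3 at -0.12 (0.534). Without UNx replicate 6, Calcoco1 was called higher (0.18, adjusted p = 0.0202 in edgeR), but over 20 settings its fold change ran from -0.22 to 0.18. Without UNx replicate 3, whose Foxo3 value of 93.0 CPM stood above the others, Foxo3 was called lower (-0.27, adjusted p = 0.0489 in edgeR).

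At 72 h Gabarapl1 was lower again after nephrectomy and 9 of the 10 genes had negative fold changes. It lay between 521 and 719 CPM in shams (median 615) and between 414 and 518 in UNx kidneys (median 445), so that every UNx library was below every sham. The log2 fold change was -0.45 (SE 0.091, adjusted p = 0.0250 in edgeR), about 0.731 of the sham level. Across all genes tested 1.71% were called at 72 h and 0.502% were called lower, and 0.742% had all UNx libraries below all shams. The call was lost, with adjusted p up to 0.071, when any 1 of sham replicates 3, 4 and 6 or UNx replicates 1, 3 and 5 was left out, and the fold change then stayed between -0.45 and -0.40. With the profile score as a covariate the fold change was -0.45 (SE 0.12) and the adjusted p 0.166.

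Ypel3 and Calcoco1 were lower in UNx kidneys of 72 h but did not pass the test. Ypel3 lay between 26.8 and 34.2 CPM in shams (median 32.1) and between 19.6 and 30.1 in UNx kidneys (median 22.4), or -0.38 on the log2 scale (SE 0.099, adjusted p = 0.0692). Calcoco1 lay between 56.3 and 69.0 CPM in shams (median 62.3) and between 37.9 and 61.4 in UNx kidneys (median 46.1), or -0.35 (SE 0.11, adjusted p = 0.111). For each gene 6 of 6 UNx libraries were below the sham mean and 4 were below the lowest sham. Without UNx replicate 6 both passed the edgeR threshold, with adjusted p of 0.0122 for Ypel3 and 0.0234 for Calcoco1, and both passed in the DESeq2 Wald test (0.0119 and 0.0381).

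The LC3 genes differed in sign at 72 h. Map1lc3b was at 141 ± 9.78 CPM (SD, n = 6) in shams and 125 ± 4.82 in UNx kidneys (log2 -0.17, adjusted p = 0.0960 in edgeR), and Map1lc3a at 42.3 ± 4.64 and 48.5 ± 4.19 (0.20, adjusted p = 0.208). Map1lc3a was above the highest sham in 5 of 6 UNx libraries. Neither passed the threshold in edgeR. Ulk1 was at 67.4 ± 4.35 and 61.1 ± 6.76 CPM (-0.14, adjusted p = 0.318 in edgeR), Bnip3 at 110 ± 9.35 and 97.3 ± 8.47 (-0.17, adjusted p = 0.207) and Foxo3 at 65.9 ± 7.07 and 57.4 ± 5.70 (-0.20, adjusted p = 0.215).

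Irs2 varied widely within each group at 72 h, from 17.7 to 65.0 CPM in shams (median 31.7) and from 15.9 to 42.2 in UNx kidneys (median 25.1), and its difference of -0.37 (SE 0.32, adjusted p = 0.614 in edgeR) was about as large as its error. Sqstm1 differed by -0.02 (SE 0.074, adjusted p = 0.935 in edgeR). The median log2 fold change of the 10 genes was -0.19, beside -0.0042 over all 14556 genes tested, of which 7441 were negative. At an unadjusted p under 0.05, 7 of the 10 genes and 2515 of all genes passed.

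**Figure D4:**
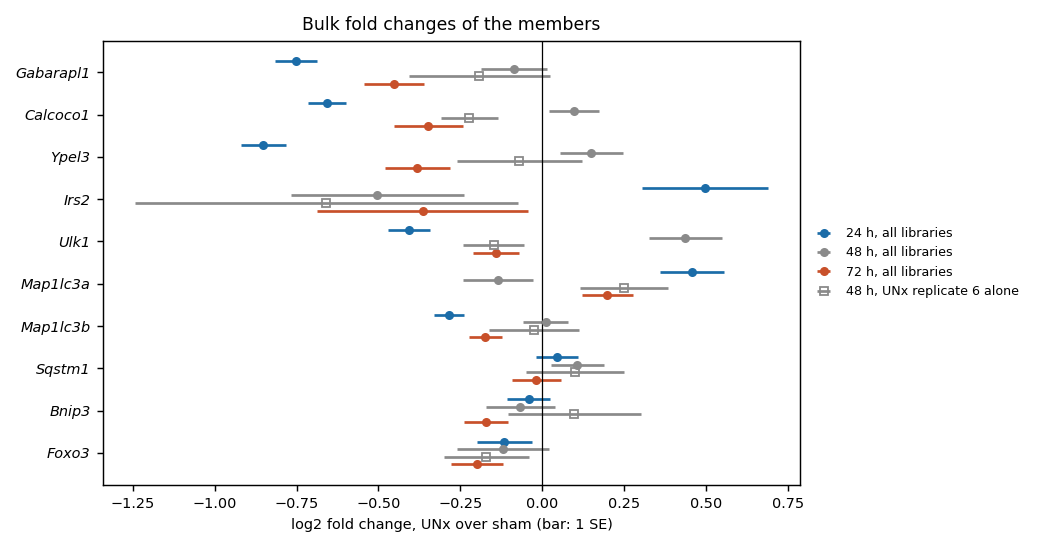
Log2 fold change of UNx over sham (horizontal axis, bars 1 SE) of the 10 genes at 24 h (blue), 48 h (grey) and 72 h (orange), with 48 h also for UNx replicate 6 alone (open squares). Ulk1 is at 0.44 at 48 h with all libraries and at -0.15 with replicate 6 alone, and Gabarapl1 is at -0.75, -0.09 and -0.45 at 24, 48 and 72 h.

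The effect of nephrectomy differed between 48 h and 72 h for 4 of the 10 genes in 1 edgeR fit over 36 libraries. It was lower at 72 h for Ulk1 (-0.59, SE 0.12, adjusted p = 0.00183), Ypel3 (-0.54, SE 0.13, adjusted p = 0.00482), Calcoco1 (-0.46, SE 0.12, adjusted p = 0.00848) and Gabarapl1 (-0.38, SE 0.13, adjusted p = 0.0407). Across all genes tested 14.6% differed in this way, and 8.78% were lower at 72 h. Gabarapl1 was called in 15 of 32 settings, with its difference between -0.43 and -0.26 in all of them, and leaving out any 1 of 13 of the 24 libraries of 48 and 72 h ended its call (adjusted p 0.0551 to 0.0984 in edgeR). These were sham replicates 1, 2 and 3 and UNx replicates 1, 4 and 5 of 48 h, and sham replicates 3, 4 and 6 and UNx replicates 1, 3, 5 and 6 of 72 h. No gene in the table was called once UNx replicates 1 to 5 of 48 h were left out, nor with the profile score as a covariate, and both settings widened the errors. Without those 5 libraries the difference was -0.26 (SE 0.19) for Gabarapl1, -0.31 (SE 0.20) for Ypel3, -0.13 (SE 0.17) for Calcoco1 and 0.0068 (SE 0.14) for Ulk1. With the covariate it was -0.36 (SE 0.17), -0.47 (SE 0.18), -0.23 (SE 0.15) and -0.13 (SE 0.13) in the same order. Gabarapl1 and Ypel3 thus lost the call while the estimate kept most of its size in both settings. Calcoco1, at -0.13 and -0.23 in place of -0.46, and Ulk1, at 0.0068 and -0.13 in place of -0.59, lost more of theirs. Without the 5 libraries replicate 6 was the only UNx library of 48 h, and errors of 0.19 and 0.20 do not show that a difference of Gabarapl1 or Ypel3 persisted.

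Between shams of 72 h and of 48 h none of the 10 genes was called. Of 15093 genes tested 0% were called in edgeR (708 at an unadjusted p under 0.05, and 5 in DESeq2). Of the 10, 7 were higher at 72 h, with Gabarapl1 at log2 0.18 (SE 0.089) and Ulk1 at 0.18 (SE 0.087), and 3 were lower. This sham shift of Gabarapl1 is part of its difference between times given above. Gabarapl1 was at 541 ± 84.6 CPM (SD, n = 6) in shams of 48 h and 618.5 ± 88.9 in those of 72 h, and at 784 ± 45.5 in those of 24 h, which carry another batch label. Map1lc3a was at 24.3 ± 3.58 CPM in shams of 24 h and at 45.9 ± 4.71 and 42.3 ± 4.64 in those of 48 and 72 h. The sham means of 24 h thus lay beyond those of the later shams before any comparison with UNx kidneys. Single libraries of Gabarapl1 overlapped, as the lowest sham of 24 h, at 706 CPM, was below the highest of 72 h, at 719.

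The other genes of these pathways are given by lists for 72 h, beside 176 genes called higher and 73 lower of 14556 tested. Of 35 FoxO target genes tested, 3 were lower and 2 higher, with Pik3ip1, which restrains PI3 kinase, at -0.78 (SE 0.14, adjusted p = 0.014 in edgeR) and Pck1, a gluconeogenic enzyme, at 0.94 (SE 0.19, adjusted p = 0.0266). The list holds 5 of the 10 genes described here, and Gabarapl1 is among the 3. Of 21 initiation and nucleation genes 1 was lower, Rb1cc1, the scaffold of the ULK1 complex (-0.22, adjusted p = 0.0212 in edgeR). Of 20 selective receptors 2 were lower, the mitophagy receptor Bnip3l (-0.23, adjusted p = 0.0186 in edgeR) and the endoplasmic reticulum receptor Ccpg1 (-0.22, adjusted p = 0.0343). Insr, the insulin receptor (-0.26, adjusted p = 0.043 in edgeR), and Pik3ca, a catalytic subunit of PI3 kinase (-0.29, adjusted p = 0.0432), were the 2 of 25 insulin pathway genes that were called, both lower, and Insr is also among the FoxO targets. Of 15 ATG8 and conjugation genes Gabarapl1 alone was called, of 28 lysosomal genes Fnip2 was called lower (-0.57, adjusted p = 0.0487 in edgeR), and of the 3 FoxO factors and 4 YPEL genes tested none was, Foxo4 being at -0.11 (adjusted p = 0.202 in edgeR) and Ypel2 at 0.81 (adjusted p = 0.052). The median log2 fold change was -0.10 over FoxO targets, -0.05 over initiation genes, 0.03 over the ATG8 list, -0.03 over receptors and -0.07 over insulin pathway genes, beside -0.0042 over all genes tested.

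At 48 h, where 2412 genes were called higher and 2284 lower of 14280 tested (32.9% in all), calls on the same lists also went in both directions. FoxO targets had 7 higher and 7 lower of 35, with the cyclin gene Ccng2 at -0.76 (adjusted p = 0.00094 in edgeR) and the catalase gene Cat at 0.49 (adjusted p = 0.00139). The ATG8 list had 3 higher and 2 lower of 15, and there Gabarap rose (0.62, adjusted p = 0.00047 in edgeR) while Gabarapl2 fell (-0.52, adjusted p = 0.0114). Initiation genes had 3 higher and 2 lower of 21, receptors 4 and 3 of 20, lysosomal genes 6 and 5 of 28, and insulin pathway genes 2 higher and 9 lower of 25, with Rictor at -0.54 (adjusted p = 0.000508 in edgeR). Foxo4 was lower (-0.47, adjusted p = 0.00226 in edgeR), as were Ypel5 (-0.46, adjusted p = 0.00373) and Ypel1 (-0.70, adjusted p = 0.0341). All these fold changes include UNx replicates 1 to 5 of 48 h, which stand apart. Mean CPM of Foxo4 was 31.7 in shams of 48 h, 23.0 in UNx kidneys of 48 h and 23.1 in shams of 24 h. In the same order Cat was at 949, 1333 and 1307, but Gabarap at 230, 356 and 172 and Rictor at 26.6, 18.3 and 25.3. What part the profile of those libraries had in these calls was not tested. With UNx replicate 6 alone, 0 of 15605 genes were called.

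Over 30 bulk libraries (all but the UNx group of 48 h), each taken as log2 CPM minus its group mean, Gabarapl1 varied with Sqstm1 (r = 0.715), Bnip3 (0.715) and Map1lc3b (0.679), whereas Calcoco1 varied with Ypel3 (0.652) and Ulk1 (0.562). Sqstm1 and Foxo3 varied in opposite directions (r = -0.604). Gabarapl1 and Calcoco1, both lower at 24 h, hardly varied together (r = 0.159). Among 9355 genes averaging log2 CPM 3 or more, the most like Gabarapl1 were Neu1 (r = 0.887), Slc13a1 (0.851), Eci2 (0.843), Gstt2 (0.843) and Slc51a (0.840). Those most like Irs2 were Zfp655 (0.819), Grpel2 (0.758) and Plekha7 (0.736), and those most like Bnip3 were Tgoln1 (0.878), Rida (0.845) and B230118H07Rik (0.837). They describe these libraries, in which all genes share depth and preparation.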

How the data were processed

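The members and pathway lists were chosen with earlier results of these data known. Per the submitters' processing notes, FastQC 0.11.8, R 4.10 and Salmon 1.5.0 were used on bulk reads (GRCm39), and nuclei were handled with alevin, Seurat and mm10. The deposited tables hold estimated counts per gene, not normalized, in bulk (34.1% not whole) and in nuclei (13.9% of values above 0 not whole). Salmon shares reads between similar transcripts, so close copies are uncertain. Nuclei had been filtered before deposit (lowest total 1755 UMIs) by steps not given in the sources used here. Doublets were not called anew. The authors annotated 30 cell classes, of which 23 had at least 10 nuclei in every mouse. Symbols came from GENCODE M21 (GRCm38), so coordinates are in that build.

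Estimated counts were rounded, for nuclei after summing per mouse and class, and tested with edgeR 4.0.16 (quasi-likelihood, filterByExpr, TMM, two-sided) in R 4.3.3 with Benjamini-Hochberg adjustment over all genes tested. A gene was called at an adjusted p under 0.05. Each bulk time point was fitted alone, and differences between times in 1 fit over 36 libraries. Standard errors are |log2 fold change| over the root of the F statistic. The labels do not say more of the replicates than that each is a mouse. The tests were tried on simulated data with 200 changed genes. All 10 members are described, and of each other list up to 3 called genes with the lowest p at 48 h and 72 h, or else the gene with the lowest p. Likeness was Pearson's r over 30 libraries, naming 5 genes for Gabarapl1 and 3 each for Irs2 and Bnip3. Alternatives included DESeq2 1.42.0, other filters, blocks, covariates and left-out libraries. In the nuclei, replicate numbers are the labelled batches and so pair the mice (correlation of deviations within a batch 0.806). No replicate pair in bulk agreed within sampling noise (chi-square at least 5.04 per gene over 90 pairs).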

Additional observations from a re-analysis of the deposited data

Results flagged for a closer look

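Of 60 checks of a gene in a bulk group of 6 libraries, 5 had a library far from the others by Dixon's test, and chance gives about 1 in 20. Foxo3 in UNx replicate 3 of 48 h stood at 93.0 CPM, next 63.4 (gap over range 0.629). Irs2 in sham replicate 1 of 24 h stood at 37.6, next 21.8 (0.689). Map1lc3a in UNx replicate 6 of 72 h was lowest at 40.6, next 48.2 (0.636), and Sqstm1 in the same library was lowest at 308.5, next 386.5 (0.765). Sqstm1 in UNx replicate 3 of 24 h stood at 426, next 371.5 (0.691). The effect of nephrectomy at 72 h was lower than that at 48 h by edgeR's test of the difference, by -0.38 for Gabarapl1, -0.46 for Calcoco1, -0.54 for Ypel3 and -0.59 for Ulk1, and none of these differences was called without UNx replicates 1 to 5 of 48 h, where they were -0.26, -0.13, -0.31 and 0.0068. For Gabarapl1 the difference lay between -0.43 and -0.26 over all 32 settings.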

How the results depend on the processing

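With the profile score as a covariate, the number of the 10 genes called was 1 at 24 h (6 without it), 0 at 48 h (1), 0 at 72 h (1) and 0 for the difference of 72 and 48 h (4). Map1lc3a at 24 h was then at -0.0797 in place of 0.46, and Ulk1 at 48 h at -0.14 in place of 0.44. Over all 19 settings of 24 h Gabarapl1 was at -0.72 or lower and Ypel3 at -0.82 or lower. Calcoco1 was at -0.54 or lower and Ulk1 at -0.10 or lower. Ypel3, Calcoco1 and Ulk1 were each called in 18 of the 19. Values of 24 h helped to choose the list, so nothing is read from how they held. Without UNx replicates 1 to 5 of 48 h, 0 genes were called at 48 h and 0 for the difference, with Ulk1 at -0.15 and 0.0068. At 72 h the DESeq2 Wald test called 4 of the 10 and the fit of 36 libraries 3. For the nuclei the DESeq2 Wald test called 1 of the 10 over all nuclei and 2 pairs of gene and class, where edgeR called 0. Counts over all genes are not given here for these settings, so nothing particular to the 10 genes is read from them. Leaving out 1 library at a time gave 6 to 7 called at 24 h, 1 to 2 at 48 h, 0 to 3 at 72 h, 3 to 5 for the difference and 0 for shams, and 0 in the nuclei. Over all genes the same fits called 3102 to 4137 at 24 h, 3727 to 6004 at 48 h and 102 to 677 at 72 h. They called 1653 to 3766 for the difference, 0 for shams, 0 over all nuclei and 0 to 77 pairs of gene and class. The cause of these changes was not tested.

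In bulk the replicate numbers did not pair the mice: of 18 pairs 2 correlated above 0.1 (range -0.285 to 0.135), and 2 of 18 libraries correlated best with their own number. With the number as a replicate block, 6 of the 10 genes were called at 24 h, 1 at 48 h, 0 at 72 h (Gabarapl1 adjusted p = 0.0664 in edgeR) and 4 for the difference, and 120 genes were called at 72 h in place of 249. In the nuclei, where the batches pair the mice, the replicate block called 1 of the 10 over all nuclei and 5 pairs of gene and class. With 2 mice per group, small differences in thinly filled classes were not detectable at this depth.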
